A study of Homo sapiens with 8 samples.

Results

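RNA of 6 genes, *CD69*, *CD96*, *SIRPA*, *NRP1*, *FGFBP2* and *PROM1*, was compared between parental and auxin-resistant CTCF AID2 SEM cells, out of 60754 genes and spike-in sequences in the table and 15614 genes tested. The 6 genes were selected on their resistant against parental differences in these same libraries, in either clone, so those differences are described here and carry no test. All 6 passed the filter of a TPM (the deposited unit, a level per transcript length) of at least 1 in at least 1 library. *PROM1*, the gene that *FGFBP2* overlaps, had small differences and does not belong with the largest changes of the table, and *FGFBP2* encodes a secreted protein and not a surface protein.

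SEM is a human cell line of *KMT2A*-rearranged B-cell acute lymphoblastic leukemia. In CTCF AID2 cells both alleles of *CTCF* carry a miniAID-mClover3 tag at the 3′ end, and OsTIR1(F74G), the plant F-box protein that the auxin analog 5-Ph-IAA couples to the tag, is expressed with a Zeocin resistance gene from a lentivirus under the MND promoter. Clones C17.2 and C3.2, which share this tag and cassette, each had 2 libraries of parental cells, which were untreated, and 2 libraries of resistant cells, 8 libraries in all. Resistant cells had been kept in 5-Ph-IAA at 1 μM with Zeocin at 100 μg/ml up to day 36 and were then taken off both drugs. Per the study's methods and blots, C17.2 resistant cells hold a truncated CTCF without the tag, beside tagged CTCF that returns once auxin is taken away, and C3.2 resistant cells hold tagged full-length CTCF with a mutation in the tag. Each line is 1 clone, and the running library numbers in the labels form a separate block for each clone, so clone and block cannot be told apart. The labels do not say that the 2 libraries of a group came from separate cultures, so the errors below measure only the spread between these libraries.

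The proteins of these genes are mostly known from lymphocytes and myeloid cells. CD69 is a C-type lectin that appears soon after lymphocyte activation and holds cells in tissue by binding the sphingosine phosphate receptor S1PR1. CD96 is a receptor of T and NK cells for nectins and the poliovirus receptor PVR, and SIRPA is a myeloid receptor that binds CD47 and recruits the phosphatases SHP-1 and SHP-2. NRP1 is a co-receptor for VEGF and class 3 semaphorins, FGFBP2 is secreted by cytotoxic lymphocytes, and PROM1 (the CD133 antigen) is a membrane protein of stem and progenitor cells that is abundant in leukemias with *KMT2A* fusions.

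RefSeq entries of 250 bases upstream of a transcription start were matched for 3 of the 6 genes, *CD96*, *FGFBP2* and *PROM1*, on GRCh38.p14. Shown 5′ to 3′ on the gene's strand are the single windows of *CD96* and *FGFBP2*, which had the lowest and the highest log2 fold change of the 6 genes, and 2 of the 4 windows of *PROM1*, the first of its starts and the one with a motif match. They lie at chr3:111541947-111542196 (forward strand), chr4:15963176-15963425, chr4:16084024-16084273 and chr4:16076119-16076368 (reverse strand for the last 3). Capitals mark the letters of the AP-1 motif TGANTCA, searched on both strands.
CD96: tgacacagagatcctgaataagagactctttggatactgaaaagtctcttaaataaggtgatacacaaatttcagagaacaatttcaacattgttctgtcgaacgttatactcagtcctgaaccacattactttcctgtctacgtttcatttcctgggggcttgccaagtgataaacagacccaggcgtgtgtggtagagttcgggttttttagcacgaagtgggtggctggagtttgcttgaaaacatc
FGFBP2: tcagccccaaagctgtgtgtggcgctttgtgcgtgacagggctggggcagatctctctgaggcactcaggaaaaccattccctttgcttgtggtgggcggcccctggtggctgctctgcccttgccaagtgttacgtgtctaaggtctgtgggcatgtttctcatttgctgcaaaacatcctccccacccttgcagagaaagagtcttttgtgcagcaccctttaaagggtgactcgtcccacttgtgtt
PROM1 upstream start: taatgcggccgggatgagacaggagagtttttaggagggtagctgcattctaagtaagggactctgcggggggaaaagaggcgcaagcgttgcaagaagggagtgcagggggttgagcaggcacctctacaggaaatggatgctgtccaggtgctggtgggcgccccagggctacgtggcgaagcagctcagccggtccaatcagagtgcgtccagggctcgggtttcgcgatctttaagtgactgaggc
PROM1 inner start: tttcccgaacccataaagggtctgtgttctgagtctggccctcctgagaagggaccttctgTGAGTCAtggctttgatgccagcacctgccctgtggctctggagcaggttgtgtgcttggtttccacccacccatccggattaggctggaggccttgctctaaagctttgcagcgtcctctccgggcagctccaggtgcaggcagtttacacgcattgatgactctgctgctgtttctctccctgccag
The AP-1 letters were found once, in the inner *PROM1* window, and in 6.57% of 35116 windows of this length. An exact match to a fixed pattern for the core motif of CTCF was present in 2.02% of all windows. None was found in these letters on either strand, nor in the other *PROM1* windows. Near matches were not counted, and some of these windows, such as those of *FGFBP2* and the inner *PROM1* start, hold one. The search therefore cannot show that these windows lack a site for CTCF, and binding of CTCF was not tested.

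The 2 libraries of a group had Pearson's r across genes between 0.968 and 0.979 (genes are not independent replicates), and the share of TPM in protein-coding genes ran from 36.0% to 43.3%. Sequencing depth is unknown, since TPM keeps none, and no counting error can be given. Scaling factors between 0.893 and 1.16 were applied before comparison. *CTCF*, the tagged gene, was between 32.17 and 35.39 TPM in parental libraries and between 41.49 and 54.73 TPM in resistant libraries. Of 19 markers of the B lineage and of SEM, 15 were tested, among them *PAX5*, *HOXA9* and *MEIS1*, whereas *DNTT*, *RAG1*, *BLNK* and *CD24* stayed below 1 TPM. Log2 fold changes are on the scale of log2(scaled TPM + 1), resistant minus parental, on which changes of low genes come out too small.

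*CD69* (ENSG00000110848.8, chr12:9752486-9760901, reverse strand) was higher in resistant cells of both clones. It was 3.54 and 2.48 TPM in C17.2 parental cells and 19.57 and 20.88 TPM in C17.2 resistant cells. In C3.2 it was 4.05 and 4.35 TPM in parental cells and 10.10 and 10.17 TPM in resistant cells. All 4 resistant libraries stood above all 4 parental libraries, and the C17.2 resistant pair stood highest. On scaled TPM the resistant mean was 6.04 times the parental mean in C17.2, a log2 fold change of 2.26 (standard error 0.105). The C3.2 resistant mean was 2.31 times the parental one, a log2 fold change of 1.05 (standard error 0.105). The order of the group means was parental cells of C17.2, parental cells of C3.2, resistant cells of C3.2 and resistant cells of C17.2, and no neighbors in this order overlapped. In bulk RNA, fewer cells with a transcript and less transcript per cell cannot be told apart.

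*CD96* (ENSG00000153283.12, chr3:111292719-111665750, forward strand) was lower in resistant cells of both clones. It was 10.33 and 9.77 TPM in C17.2 parental cells and 1.24 and 2.24 TPM in C17.2 resistant cells. Cells of C3.2 had 15.98 and 14.74 TPM in parental cells and 0.93 and 0.68 TPM in resistant cells. All 4 resistant libraries stood below all 4 parental libraries, and C3.2 had both the higher parental and the lower resistant level. The parental mean was 6.48 times the resistant mean in C17.2 and 20.1 times in C3.2 on scaled TPM. The log2 fold changes were -2.13 (standard error 0.16) and -3.28 (standard error 0.16), and with a pseudocount of 0.1 they were -2.67 and -4.18. *CD96* had the lowest log2 fold change of 11197 tested protein-coding genes in C3.2 and ranked 36 from the lowest in C17.2.

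*SIRPA* (ENSG00000198053.11, chr20:1894167-1940592, forward strand) was higher in resistant cells of C3.2 and close to its parental level in C17.2. In C3.2 it was 3.03 TPM in both parental libraries and 9.22 and 9.77 TPM in the resistant libraries. In C17.2 it was 6.97 and 6.63 TPM in parental cells and 7.42 and 6.93 TPM in resistant cells. The C17.2 groups overlapped on TPM as deposited, and on scaled TPM the resistant pair (6.61 and 5.99) lay just below the parental pair (6.64 and 6.71). The log2 fold change was 1.34 (standard error 0.0743) in C3.2, a 3.00-fold mean difference. In C17.2 it was -0.073 (standard error 0.0743), and its sign turned to 0.067 on TPM as deposited and to 0.00062 on TPM rescaled over protein-coding genes. Parental cells of the clones differed, with C3.2 at a ratio of 0.50 to C17.2, and resistant cells at a ratio of 1.59, both without overlap. Reads of *SIRPA* can be shared with its paralogs, and the paralogs were low, with a maximum of 0.61 TPM for *SIRPB1* and 0.10 TPM for *SIRPG*.

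*NRP1* (ENSG00000099250.18, chr10:33177492-33336262, reverse strand) was higher in resistant cells of both clones and started from different levels. It was 1.52 and 0.92 TPM in C17.2 parental cells and 3.95 and 3.08 TPM in C17.2 resistant cells. In C3.2 it was 3.33 and 3.74 TPM in parental cells and 12.53 and 13.32 TPM in resistant cells. Resistant cells of C17.2 and untreated C3.2 overlapped on TPM as deposited, whereas on scaled TPM C17.2 resistant cells (3.52 and 2.66) lay below C3.2 parental cells (3.73 and 4.06). The log2 fold change was 0.90 (standard error 0.15) in C17.2 and 1.58 (standard error 0.15) in C3.2, where it was the highest of the 11197 genes. On scaled TPM C3.2 stood at 3.27 times C17.2 in parental cells and at 4.40 times in resistant cells, with no overlap in either state.

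*FGFBP2* (ENSG00000137441.8, chr4:15960245-15969309, reverse strand) was higher in resistant cells of both clones. It was 1.16 and 2.09 TPM in C17.2 parental cells and 14.10 and 15.94 TPM in C17.2 resistant cells. C3.2 had 1.54 and 1.53 TPM in parental cells and 5.68 and 5.27 TPM in resistant cells. The parental clones overlapped each other, while the resistant clones stood apart with C17.2 higher. The log2 fold change was 2.47 (standard error 0.173) in C17.2, the highest of the 11197 genes, and 1.33 (standard error 0.173) in C3.2. With a pseudocount of 0.1 these values were 3.02 and 1.71.

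*PROM1* (ENSG00000007062.11, chr4:15963076-16084378, reverse strand) was the most abundant of the 6 genes in every library. It was 217.84 and 211.91 TPM in C17.2 parental cells and 251.62 and 247.82 TPM in C17.2 resistant cells. In C3.2 it was 183.27 and 182.91 TPM in parental cells and 228.20 and 220.31 TPM in resistant cells. Resistant libraries stood above parental ones in both clones on TPM as deposited, and on scaled TPM the C17.2 groups overlapped. The log2 fold changes of 0.055 and 0.22 (standard error 0.0442 each) ranked 4910 and 1359 from the highest. The order of the resistant clones depended on the scaling, with C17.2 above on TPM as deposited and C3.2 above on scaled TPM, at a ratio of 1.08.

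**Figure D1:**
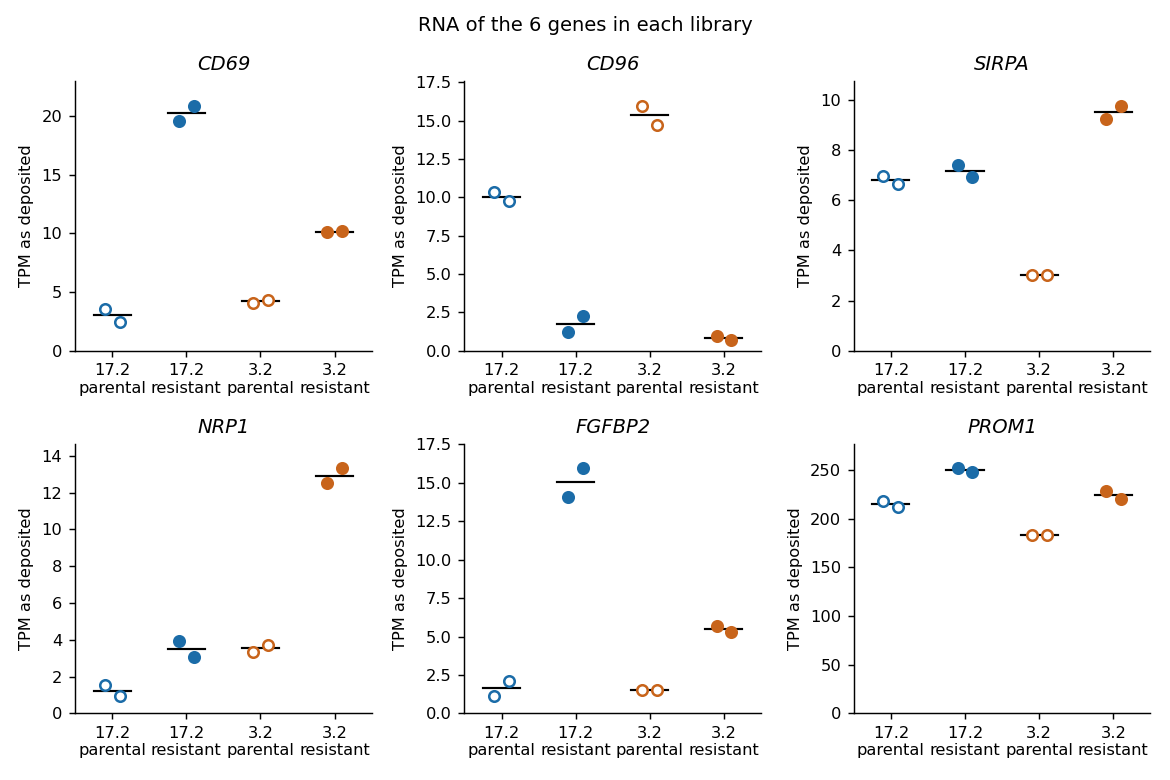
TPM as deposited (vertical axis, linear) of each of the 6 genes in the 4 groups, with open points for parental and filled points for resistant libraries and a line at the mean of the 2 libraries. *CD69* reaches 19.57 and 20.88 TPM in C17.2 resistant cells, *CD96* is at 0.93 and 0.68 TPM in C3.2 resistant cells, and *SIRPA* stands at 3.03 TPM in C3.2 parental and at 9.22 and 9.77 TPM in C3.2 resistant cells.

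The plot of TPM by library shows that groups do not overlap for 5 of 6 genes in C17.2 and for 6 of 6 in C3.2, the exception being *SIRPA* on TPM as deposited and *PROM1* on scaled TPM. Of all tested genes, 67.9% in C17.2 and 55.6% in C3.2 had groups that did not overlap on TPM as deposited, and 66.0% and 55.8% on scaled TPM. Over the whole table, a share of 27.3% of tested genes passed an adjusted p of 0.05 in C17.2, 13.4% higher and 13.9% lower, and 11.4% in C3.2, 4.46% higher and 6.90% lower (limma with Benjamini-Hochberg adjustment). The split by direction depended on the scaling, with 3849 genes higher and 1279 lower in C17.2, and 716 higher and 523 lower in C3.2, on TPM as deposited. Of the 15614 tested genes, 11197 were protein-coding, and the shares for these alone are not given. The lists and neighbors below therefore have no background share of the same gene type. Since the 6 genes were selected on these contrasts, nothing is read from their count. The plot of both clones' log2 fold changes places *CD69* and *FGFBP2* together, at the larger values for C17.2, and *NRP1*, *SIRPA* and *PROM1* at the larger values for C3.2. *CD96* was lower in resistant cells of both, further in C3.2.

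**Figure D2:**
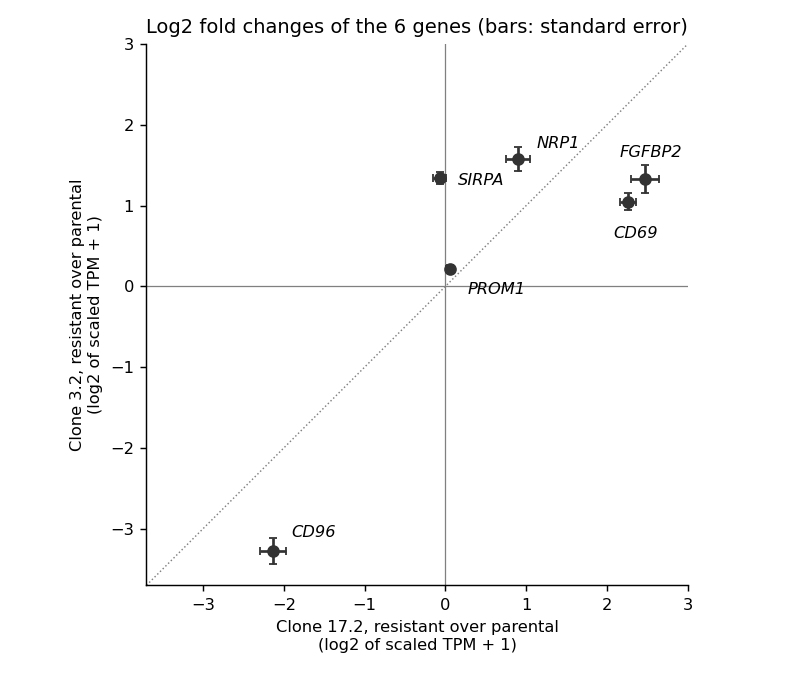
Log2 fold changes of the 6 genes, resistant over parental, in C17.2 (horizontal) and C3.2 (vertical), on log2(scaled TPM + 1), with bars of 1 standard error and a dotted line of equal values. *CD69* (2.26 and 1.05) and *FGFBP2* (2.47 and 1.33) lie below the line, and *SIRPA* (-0.073 and 1.34) lies above it.

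Over the 8 libraries, log2 levels of *CD69* and *FGFBP2* had a Pearson's r of 0.95, *SIRPA* and *PROM1* one of 0.91 and *CD96* and *PROM1* one of -0.90, as a description of 4 groups that share clones and scaling. Outside the 6 genes, the patterns most like *CD69* were those of *FCHO2* (r = 0.994), *POLR1E* (0.993) and *NFYA* (0.989). For *CD96* they were *EIF4B* and *EEF2K* (0.997 each) and *TM7SF2* (0.991), of which *EIF4B*, a translation initiation factor, differed by -0.34 and -0.49 on the log2 scale in C17.2 and C3.2. For *SIRPA* they were *ARID1B* (0.982), *KLF6* (0.979) and *MOB3A* (0.974), and for *NRP1* they were *TTLL12* (0.991), *EIF4A3* (0.983) and *GDF11* (0.980). *FGFBP2* was followed by *TOX* (0.993), *ZNF484* (0.989) and *KIF4A* (0.986). *TOX*, a transcription factor of lymphocyte development, was 0.925 TPM in C17.2 parental cells and 4.52 TPM in resistant cells, and 0.825 and 2.33 TPM in C3.2 (means of 2). The nearest patterns to *PROM1* were *DPYSL3* (0.982), *TMEM86B* (0.971) and *DAAM1* (0.969). This likeness is one of shape over the libraries and not of size.

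*FGFBP2* and *PROM1* lie on the same strand, and the annotation runs them into each other. The start of the longer of its 2 transcripts, at 15963175, lies 5.05 kb beyond the end of a *PROM1* transcript that runs from 16084023 to 15968228 and 121 kb from that start, but other *PROM1* transcripts reach into *FGFBP2*. Of the first exon of this *FGFBP2* transcript, 84 of 738 bases lie in *PROM1* exons, and the 82-base first exon of the other lies wholly in them. The level of *FGFBP2* was 0.533% and 0.986% of that of *PROM1* in C17.2 parental cells and 5.60% and 6.43% in resistant cells. The same share in C3.2 was 0.840% and 0.836% in parental cells and 2.49% and 2.39% in resistant cells. The share was higher in every resistant library than in every parental library, while *PROM1* itself moved little. How the reads of the shared bases were assigned was not tested, so the level of *FGFBP2* is uncertain. The other listed relatives were near 0, with a maximum of 0.04 TPM for *FGFBP1*, 0.67 TPM for *FGFBP3* and 0.42 TPM for *PROM2*.

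Ligands, receptors and partners of the 6 genes were tested in the same limma model. The lists were drawn up with earlier results of these data known. Of 81 listed genes in 5 lists, 39 were tested. In C17.2, 18 of them (46.2%, beside 27.3% of all tested genes) changed, 10 higher and 8 lower. In C3.2, 9 (23.1%, beside 11.4% of all tested genes) changed, 5 higher and 4 lower. The median log2 fold change was 0.056 and -0.00036, beside 0 for all tested genes. The direction depended on the scaling, with 13 higher and 5 lower in C17.2 and 5 higher and 2 lower in C3.2 on TPM as deposited, and 9 higher and 4 lower in C3.2 on TPM rescaled over protein-coding genes. The calls in C3.2 rest on the spread shared with C17.2, since limma on the 4 libraries of C3.2 alone called 0 of the 39, with 12 at an unadjusted p under 0.05.

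Around *CD69*, 20 of 28 listed genes were tested, and 6 rose and 2 fell in C17.2 while 4 rose and 1 fell in C3.2. *EGR1* went from 2.79 and 3.02 to 14.75 and 14.51 TPM in C17.2 (log2 fold change 1.85, adjusted p = 6.81e-05 from limma). It was 11.07 and 10.64 TPM in C3.2 parental cells and 16.62 and 13.68 TPM in resistant cells (0.38, adjusted p = 0.0436 from limma). *FOS* and *FOSB*, which encode AP-1 subunits, rose by 1.47 and 1.42 in C17.2 (adjusted p = 0.00194 and 0.00128 from limma), and *FOSB* rose by 0.70 in C3.2 (adjusted p = 0.0347 from limma), where *FOS* was at 0.51 (adjusted p = 0.121 from limma). The other AP-1 genes listed did not pass the test in either clone, with log2 fold changes in C17.2 and C3.2 of 0.25 and 0.26 for *JUN*, -0.12 and -0.058 for *JUNB* and -0.22 and -0.52 for *JUND* (adjusted p of 0.141 or more from limma). *LGALS1*, the galectin that binds CD69, rose by 0.62 and 0.42 (adjusted p = 0.000912 and 0.0112 from limma). *NFATC1*, a calcium-regulated activator, fell by 0.57 and 0.52 (adjusted p = 0.00712 and 0.0231 from limma), and *SGPL1*, which breaks down sphingosine phosphate, fell by 0.26 in C17.2 (adjusted p = 0.0218 from limma), a call lost on TPM as deposited. *S1PR1*, the receptor that CD69 binds, had a maximum of 0.04 TPM, so its RNA was near 0 in every library. In C3.2 the call of *EGR1* was lost without any 1 of the 8 libraries (adjusted p up to 0.198 from limma), that of *FOSB* without any 1 of 7 (up to 0.149), and that of *NFATC1* without any 1 of 6 and on TPM as deposited (up to 0.128).

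Around *CD96*, 3 of 10 listed genes were tested. *NECTIN1*, an adhesion molecule and ligand of CD96, fell in both clones, where *CD96* was lower too, from 4.84 and 4.83 to 1.44 and 1.74 TPM in C17.2 and from 2.14 and 2.05 to 0.84 and 0.69 TPM in C3.2. The log2 fold changes were -1.27 and -0.88 (adjusted p = 0.000386 and 0.00457 from limma). *NECTIN2* fell by 0.46 in C3.2 (adjusted p = 0.0281 from limma), a call lost on TPM as deposited and without any 1 library, and was at 0.15 in C17.2 (adjusted p = 0.288 from limma). *PVR*, a main ligand of CD96, was listed at 0 in all 8 libraries, and the related receptors *TIGIT* and *CD226* had a maximum of 0.07 and 0.71 TPM.

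Around *SIRPA*, 7 of 15 listed genes were tested. The ligand *CD47* was between 41.15 and 52.77 TPM in every library, with log2 fold changes of 0.051 and -0.024 (adjusted p = 0.604 and 0.856 from limma). *PTPN6*, which encodes SHP-1, rose by 0.53 in C17.2 and by 0.33 in C3.2 (adjusted p = 0.000812 and 0.0119 from limma). *PTPN11*, which encodes SHP-2, rose by 0.28 in C17.2 (adjusted p = 0.0235 from limma), a call lost without any 1 of 6 libraries. *QPCTL*, the enzyme that modifies CD47 for SIRPA binding, fell by 0.49 in C17.2 (adjusted p = 0.00447 from limma).

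Around *NRP1*, 9 of 25 listed genes were tested, of which 2 rose and 4 fell in C17.2 and 1 fell in C3.2. On TPM as deposited 2 rose and 2 fell in C17.2, and once TPM was rescaled to its protein-coding part, 2 rose and 1 fell in C3.2. *VEGFA*, the main VEGF ligand, went from 7.25 and 6.41 to 0.50 and 0.65 TPM in C17.2 (log2 fold change -2.36, adjusted p = 7.91e-05 from limma). It was already at 0.80 and 0.94 TPM in C3.2 parental cells, and at 0.38 and 0.55 TPM in resistant cells (adjusted p = 0.0853 from limma). The next falls in size in C17.2 were of *SEMA4A*, by 1.28 (adjusted p = 0.00375 from limma), and *TGFB1*, by 0.92 (adjusted p = 0.0318 from limma). The smallest of the 4 falls was of the class 3 semaphorin gene *SEMA3A*, by 0.29 (adjusted p = 0.00741 from limma), a call lost on TPM as deposited. *SEMA3A* was at 0.11 in C3.2 (adjusted p = 0.227 from limma). *GIPC1*, whose product binds the tail of NRP1, rose by 0.53 in C17.2, and *VEGFB* by 0.28 (adjusted p = 0.00663 and 0.00903 from limma). In C3.2 *PLXND1*, a semaphorin receptor, fell by 0.70 (adjusted p = 0.00412 from limma). The VEGF receptor genes *KDR* and *FLT1* and the second neuropilin *NRP2* had a maximum of 0.13, 0.10 and 0.29 TPM. The call of *TGFB1* was lost on TPM as deposited and without any 1 of 5 libraries.

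**Figure D3:**
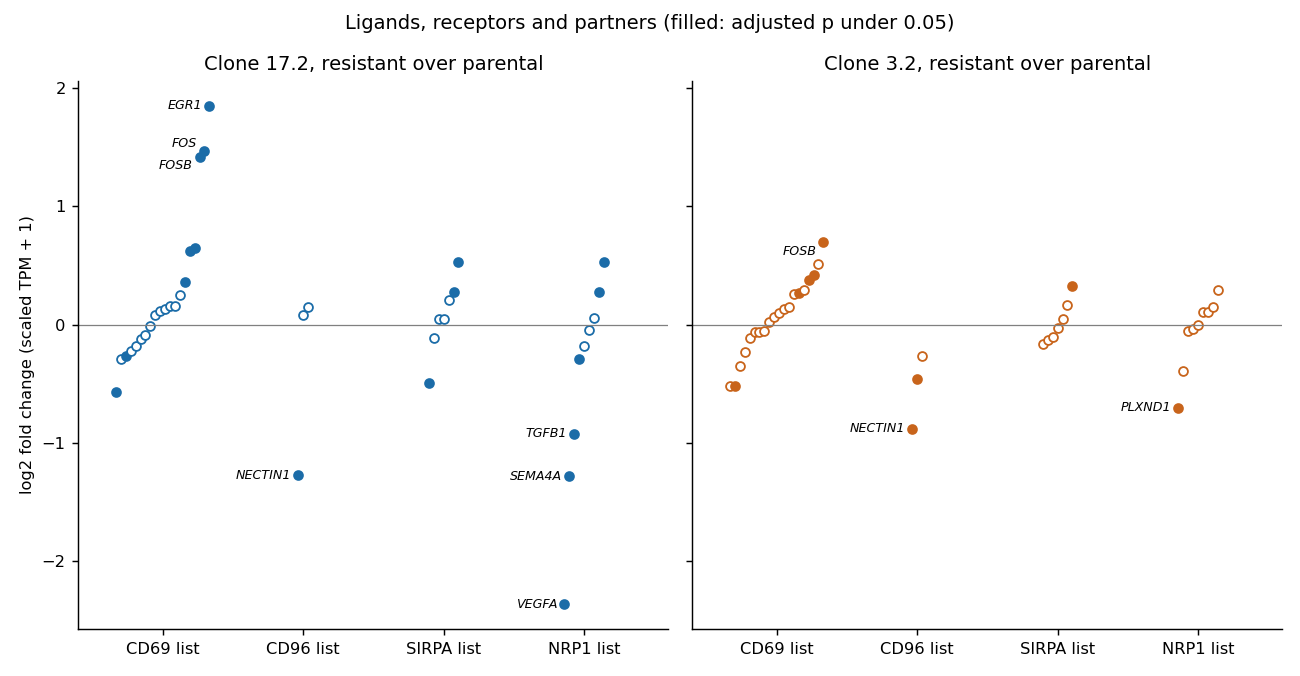
Log2 fold changes (vertical axis, log2 of scaled TPM + 1, resistant over parental) of the 39 tested genes listed around *CD69*, *CD96*, *SIRPA* and *NRP1* in each clone, filled where the limma adjusted p was under 0.05. *EGR1* at 1.85 and *VEGFA* at -2.36 are the outermost points in C17.2, and *FOSB* at 0.70 and *NECTIN1* at -0.88 in C3.2.

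Genes next to the 6 on the chromosome were taken as the 5 nearest tested protein-coding genes on either side. Distances were taken between the lower coordinates of the genes, whatever their strand. The farthest of the 10 lay between 812 kb (*CD69*) and 3250 kb (*CD96*) away, so many were not close. These 50 genes are all protein-coding, whereas all tested genes include other types, so the shares are of unlike sets. Among the 50, 21 (42.0%, beside 27.3% of all tested genes) changed in C17.2, 13 higher and 8 lower. In C3.2, 9 (18.0%, beside 11.4% of all tested genes) changed, 2 higher and 7 lower. The split moved to 21 higher and 6 lower in C17.2 on TPM as deposited, and in C3.2 to 9 higher and 5 lower on TPM rescaled over protein-coding genes and 3 higher and 6 lower with quantile normalization. Within 1 neighborhood the genes went in different directions. *CLEC2D*, a C-type lectin gene 87.5 kb from *CD69* by lower coordinates, fell by 1.02 and 1.21 (adjusted p = 0.00027 and 0.000548 from limma) where *CD69* was higher. Further out, *GABARAPL1* and *KLRG1* rose by 0.69 and 0.62 in C17.2 (adjusted p = 0.00315 and 0.0169 from limma). Next to *CD96*, 2 of 10 genes fell in C17.2 and 3 of 10 in C3.2, and none rose (limma called 0 higher in either, with 3 and 4 of the 10 at an unadjusted p under 0.05 in either direction). *GCSAM*, 828 kb away, fell by 1.07 and 0.91 (adjusted p = 0.00191 and 0.00958 from limma). *PHLDB2*, 440 kb away, was at 0.0051 in C17.2 and fell by 1.03 in C3.2 (adjusted p = 0.99 and 0.00915 from limma).

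Next to *SIRPA*, where C3.2 had the difference, limma called 0 of 10 genes in C3.2, with 2 at an unadjusted p under 0.05, and 4 of 10 in C17.2. Next to *NRP1*, 5 rose and 1 fell in C17.2, led by *CCDC7*, 731 kb away, at 1.25 (adjusted p = 0.00232 from limma). In C3.2 1 rose and 1 fell, and the integrin gene *ITGB1* rose by 0.32 and 0.33 in the 2 clones (adjusted p = 0.00359 and 0.00874 from limma). *FGFBP2* and *PROM1* have the same 10 neighbors, of which 2 rose and 2 fell in C17.2 and 1 rose and 1 fell in C3.2. *CD38*, a surface enzyme gene 182 kb from *FGFBP2*, fell by 1.04 and 0.92 (adjusted p = 0.0117 and 0.0371 from limma). *QDPR*, 1500 kb from *FGFBP2*, rose by 0.31 in C3.2 (adjusted p = 0.0308 from limma). The C3.2 calls of *CD38* and *QDPR* were lost without any 1 of 7 and 6 libraries (adjusted p up to 0.179 and 0.151 from limma).

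**Figure D4:**
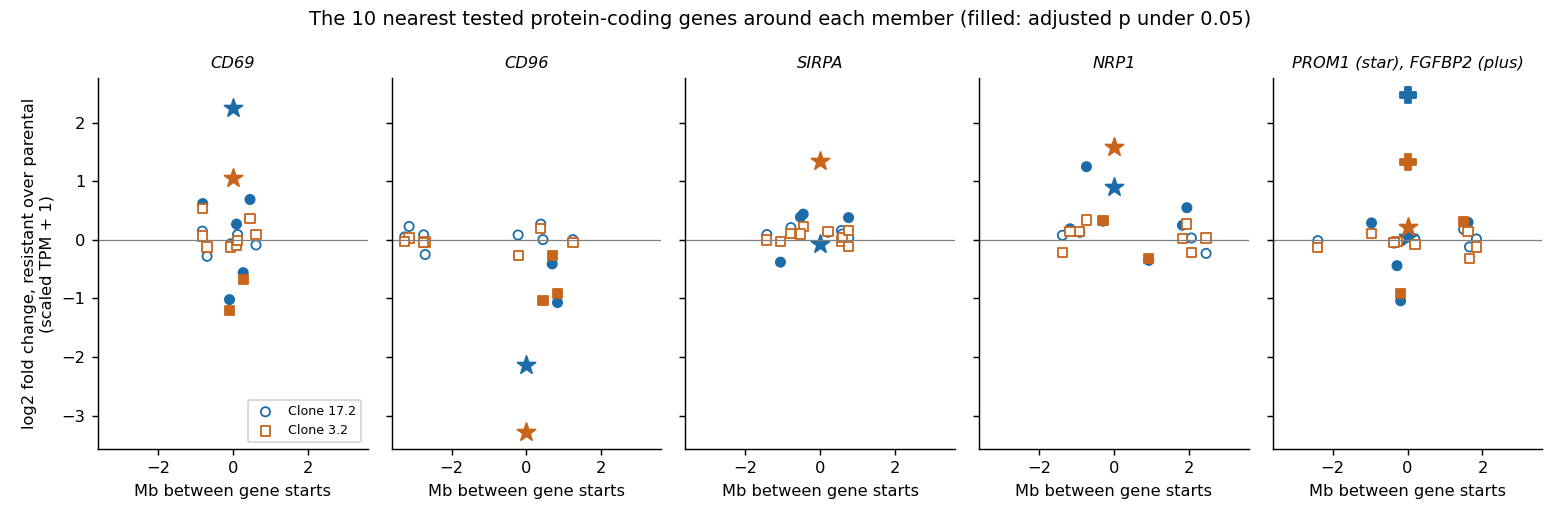
Log2 fold changes (vertical axis, log2 of scaled TPM + 1) of the 10 nearest tested protein-coding genes against distance in Mb (horizontal axis, 0 at the gene itself), circles for C17.2 and squares for C3.2, filled where the limma adjusted p was under 0.05. Gene starts on the axis are the lower coordinates of the genes, whatever their strand, and not transcription starts. Stars and plus signs mark the 6 genes, and *CLEC2D* at -1.02 and -1.21 lies beside *CD69* at 2.26 and 1.05.

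Other genes with a CD number, 36 without the 6 genes, were set beside them as further surface antigens. In C17.2, 19 (52.8%) changed, 4 higher and 15 lower, and in C3.2 13 (36.1%) changed, 3 higher and 10 lower, so most of the changed antigens were lower. Over all tested genes the shares were 27.3% in C17.2 (13.4% higher and 13.9% lower) and 11.4% in C3.2 (4.46% higher and 6.90% lower). All tested genes include types other than protein-coding, whereas the 36 are all protein-coding, so the sets are unlike. Fewer of the 36 were lower under other scalings, with 7 higher and 11 lower in C17.2 on TPM as deposited, and in C3.2 with 5 higher and 8 lower on TPM rescaled over protein-coding genes and 3 higher and 6 lower with quantile normalization. In C17.2 the rises were led by *CD52* at 1.16, *CD63* at 0.90 and *CD59* at 0.70 (adjusted p = 0.0025, 0.000565 and 0.00174 from limma). The deepest falls were of *CD79B*, the B-cell receptor signaling chain, at -1.51, of *CD33*, at -1.14, and of *CD38* (adjusted p = 7.26e-05, 0.00736 and 0.0117 from limma). In C3.2 *CD99*, *CD164* and *CD74* rose by 0.49, 0.27 and 0.25 (adjusted p = 0.00414, 0.0331 and 0.0223 from limma). The falls there were led by *CD79B* at -1.03, *CD38* and *CD9* at -0.75 (adjusted p = 0.00112, 0.0371 and 0.0388 from limma), and the calls of *CD164*, *CD74* and *CD9* were lost without any 1 of 7, 5 and 6 libraries. *CD52* went the other way there, at -0.68 (adjusted p = 0.0359 from limma), a call lost without any 1 of 6 libraries.

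T and NK cells, which carry CD69, CD96 and FGFBP2, and myeloid cells, which carry SIRPA and NRP1, were checked by their markers. Of 26 T and NK markers, 10 were at 0 in all libraries, among them *CD3D*, *CD4*, *CD8A* and *TRBC1*, and 18 were below 1 TPM. Their summed level ranged from 131 to 141 TPM in C17.2 parental, 137 to 141 in C17.2 resistant, 133 to 141 in C3.2 parental and 124 to 127 TPM in C3.2 resistant cells. Most of that sum came from *TRAC* (38.64 to 49.23 TPM), the NK receptor gene *KLRK1* (34.48 to 43.05 TPM) and *LCK* (23.74 to 35.27 TPM). *KLRK1* did not pass the test in either clone (adjusted p = 0.358 and 0.391 from limma). Of the 8 tested, 3 rose and 3 fell in C17.2 (75% changed, beside 27.3% of all tested genes). In C3.2, 1 rose and 3 fell (50%, beside 11.4% of all tested genes). With the libraries of C3.2 alone, limma called 0 of these markers, with 5 at an unadjusted p under 0.05. *GZMA*, a granzyme gene, rose by 0.68 and 0.98 (adjusted p = 0.0209 and 0.0143 from limma) from 0.61 TPM or less in every parental library. *ZAP70* rose by 0.63 in C17.2 and fell by 0.63 in C3.2 (adjusted p = 0.00555 and 0.0142 from limma). *TRAC* fell by 0.42 and 0.22 and *LCK* by 0.30 and 0.55 (adjusted p = 0.000667, 0.0186, 0.00654 and 0.00253 from limma), of which the C3.2 call of *TRAC* was lost under all 3 other scalings and the C17.2 call of *LCK* on TPM as deposited. *NKG7* rose by 0.51 and *CCL5* fell by 0.89 in C17.2 (adjusted p = 0.00666 and 0.0124 from limma), calls lost without C17.2 parental library 2 and 1, respectively (adjusted p = 0.0542 and 0.0674 from limma).

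Of 18 myeloid and dendritic markers, 13 were below 1 TPM in all libraries, among them *CD14*, *ITGAM* and *MPO*, and *S100A12*, *FCN1* and *CLEC4C* were at 0. Their summed level ranged from 13.9 to 14.7 TPM in C17.2 parental, 8.04 to 10.1 in C17.2 resistant, 5.96 to 7.47 in C3.2 parental and 9.15 to 10.7 TPM in C3.2 resistant cells. In C3.2 the sum was thus higher in resistant cells along with *SIRPA* and *NRP1*. That rise lay mostly in *CD33* (means of 2.24 and 3.63 TPM) and *LYZ* (0.565 and 1.82 TPM), neither past the threshold (adjusted p = 0.163 and 0.055 from limma). In C17.2 the sum was lower in resistant cells, mostly through *CD33* (means of 8.67 and 3.77 TPM), while *NRP1* was higher and *SIRPA* close to its parental level. Limma called 0 of the 5 tested markers in C3.2, with 3 at an unadjusted p under 0.05. It called 60% of them in C17.2, beside 27.3% of all tested genes. In C17.2 *CD33*, *CSF1R* and *IL3RA* fell, by 1.14, 0.64 and 0.69 (adjusted p = 0.00736, 0.0421 and 0.00826 from limma), and the call of *CSF1R* was lost without any 1 of 7 libraries. The part of these markers in the changes of the 6 genes was not tested. Among B lineage and SEM markers, 7 of 15 fell in C17.2 (46.7%, beside 27.3% of all tested genes changed). In C3.2, 7 fell and 1 rose (53.3%, beside 11.4% of all tested genes changed). With the libraries of C3.2 alone, limma called 2 of these markers, with 9 at an unadjusted p under 0.05. The surrogate light chain gene *IGLL1* fell by 2.16 and 2.35 and *VPREB3* by 3.35 and 2.35 (adjusted p = 2.28e-05, 0.000122, 4.25e-05 and 0.000534 from limma). *RAG2* fell by 0.97 in C17.2 and by 1.99 in C3.2 (adjusted p = 0.00183 and 0.000493 from limma). *PAX5* rose by 0.27 in C3.2 (adjusted p = 0.0229 from limma), a call lost without any 1 of 5 libraries (adjusted p up to 0.126 from limma). The summed level of the list ranged from 1353 to 1441 TPM in C17.2 parental and from 1256 to 1275 TPM in C17.2 resistant cells. For C3.2 the range was 1260 to 1333 TPM in parental and 1079 to 1140 TPM in resistant cells. The sum was thus lower in resistant cells of both clones on TPM as deposited.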

How the data were processed

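RNA-seq of total RNA depleted of ribosomal RNA was analyzed for 8 libraries in 4 groups of 2. The authors used Trim Galore 0.6.3 on the reads, STAR 2.7.9a with hg38, and RSEM 1.3.1 with annotation from Gencode release 31. The authors deposited TPM per gene, with no scaling between libraries and no depth, and whether reads were counted by strand is not given in the sources used here. The methods describe paired-end reads and the labels single-end reads. The paper gives another series number for its RNA-seq, and libraries were matched by clone and state.

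The filter was 1 TPM or more in any 1 library, which 15614 genes passed. Library factors were a trimmed mean of log2 ratios, with 30% of ratios and 5% of means trimmed from each end. Log2(scaled TPM + 1) was fitted in limma 3.58.1 (R 4.3.3) with an intensity trend, in 1 model of 4 groups without covariates, with Benjamini-Hochberg adjustment over all tested genes and a two-sided threshold of 0.05. Counts, which limma-voom as used by the authors takes, were not used here. The model was tested on simulated data. The 92 spike-in sequences were at 0. The 6 genes and the lists were chosen with earlier results of these data known. Genes named were the 6 genes, the 3 protein-coding genes with the highest Pearson's r to each over the 8 libraries, and of each list all genes past the threshold in either clone, or, where more than 6 were, the 3 largest rises and falls in each clone. Genes listed to show that a ligand, receptor or marker was low were chosen after their values were seen. So were *CD47*, *KLRK1*, *LYZ*, *SEMA3A*, the JUN family genes, *FOS* in C3.2 and the B lineage markers named without a test. Positions came from Gencode release 44 on GRCh38, and tables and plots were made with Python 3.11.15, pandas 2.3.3 and matplotlib 3.10.9.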

Additional observations from a re-analysis of the deposited data

Results flagged for a closer look

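Of the 47 genes named from the lists and neighbors by the rule on test results, 17 changed differently in the 2 clones by the limma interaction test, given here as the log2 fold change in C17.2 minus that in C3.2, with the Benjamini-Hochberg adjusted p over all tested genes. The 6 genes were selected on these contrasts, and their difference between clones was not tested. Among the genes around *CD69* and *CD96*, the difference was 1.47 for *EGR1* (adjusted p = 0.00205 from limma) and 0.61 for *NECTIN2* (adjusted p = 0.0368 from limma). Around *SIRPA* it was 0.41 for *PTPN11* (adjusted p = 0.0462 from limma). Around *NRP1* it was -1.96 for *VEGFA* (adjusted p = 0.00202 from limma), -1.23 for *SEMA4A* (adjusted p = 0.035 from limma) and 0.75 for *PLXND1* (adjusted p = 0.00979 from limma). *PHLDB2*, next to *CD96*, differed by 1.03 (adjusted p = 0.0269 from limma).

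Genes with a CD number whose log2 fold changes had opposite signs in the clones were *CD52*, at 1.83 (adjusted p = 0.00496 from limma), *CD59*, at 1.05 (adjusted p = 0.00458 from limma), *CD74*, at -0.57 (adjusted p = 0.00493 from limma), and *CD33*, at -1.64 (adjusted p = 0.0182 from limma). *CD63* differed by 0.73 (adjusted p = 0.0127 from limma), *CD99* by -0.42 (adjusted p = 0.0204 from limma) and *CD79B* by -0.48 (adjusted p = 0.0387 from limma). Among cell type markers, *ZAP70* differed by 1.27 (adjusted p = 0.00483 from limma), *RAG2* by 1.02 (adjusted p = 0.0146 from limma) and *VPREB3* by -1.0 (adjusted p = 0.0268 from limma). Clone and block of library numbers cannot be told apart in any of these differences.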

How the results depend on the processing

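Log2 fold changes of the 6 genes kept their direction under 3 other scalings, a pseudocount of 0.1, 2 other filters, a model of each clone alone and the omission of each library, except *SIRPA* in C17.2, which turned from -0.073 to 0.067 on TPM as deposited and to 0.00062 once rescaled over protein-coding genes. That rescaling gave, in C17.2 and C3.2, 2.54 and 1.24 for *CD69*, -2.39 and -3.71 for *CD96*, 1.22 and 1.80 for *NRP1*, 2.89 and 1.65 for *FGFBP2* and 0.14 and 0.33 for *PROM1*, and 1.57 for *SIRPA* in C3.2. A pseudocount of 0.1 gave 2.57 and 1.19 for *CD69*, -2.67 and -4.18 for *CD96*, 1.32 and 1.78 for *NRP1*, 3.02 and 1.71 for *FGFBP2*, and 1.55 for *SIRPA* in C3.2. TPM as deposited gave 2.42 for *CD69* in C17.2 and 0.22 and 0.29 for *PROM1*, and quantile normalization gave 0.19 and 0.32 for *PROM1*. With each library left out, values ranged in C17.2 from 2.10 to 2.42 (*CD69*), -2.36 to -1.88 (*CD96*), -0.13 to -0.011 (*SIRPA*), 0.73 to 1.07 (*NRP1*), 2.18 to 2.75 (*FGFBP2*) and 0.023 to 0.089 (*PROM1*). In C3.2 they ranged from 1.02 to 1.09, -3.37 to -3.20, 1.27 to 1.41, 1.50 to 1.65, 1.31 to 1.35 and 0.20 to 0.25, with the genes in the same order. The median log2 fold change of all tested genes moved from 0 to 0.13 on TPM as deposited in C17.2, and by less than 0.1 under the other scalings. In C17.2, 4261 genes were called by limma, 2094 higher and 2167 lower, but 3849 of 5128 were higher on TPM as deposited and 3140 of 4859 on rescaled TPM. In C3.2, 1773 were called (696 higher), with 1712 of 2455 higher on rescaled TPM, 716 of 1239 on TPM as deposited and 787 of 1550 with quantile normalization. C3.2 counts depended on the processing. Without the filter limma called 1167 genes, 5 partners and 6 genes with a CD number, and with the libraries of C3.2 alone 77 genes, 0 partners (12 at an unadjusted p under 0.05), 1 neighbor and 1 gene with a CD number. Rescaling gave 14 neighbors. With each library left out, limma called in C17.2 2372 to 4545 genes, 13 to 19 partners, 13 to 21 neighbors and 14 to 21 genes with a CD number. In C3.2 it called 326 to 1789, 1 to 9, 2 to 7 and 3 to 9. In C17.2 the gene count moved by over 1.5 times without its parental library 1 (2372) or 2 (2526) or its resistant library 2 (2644), and the neighbor count without parental library 1 or 2 (13 each). In C3.2 the gene count did so without C3.2 parental library 1 (326) or 2 (399), its resistant library 2 (851) or C17.2 parental library 1 (988) or 2 (981). There, without C3.2 parental library 1, 1 partner, 2 neighbors and 3 genes with a CD number were called, and without parental library 2, 3, 2 and 4. Partners were 5 without C3.2 resistant library 2 or C17.2 parental library 1 or 2, and 4 without C17.2 resistant library 1 or 2. Genes with a CD number were 6 without either C17.2 parental library and 8 without either C3.2 resistant library. Among 1410 alternative values of 47 named genes, 1394 kept their direction, and the 16 that turned (*CSF1R*, *SEMA4A*, *SGPL1*, *TGFB1* and *VEGFB* in C3.2, *PAX5*, *PHLDB2* and *PLXND1* in C17.2) passed the threshold neither before nor after. Of the values, 197 were no longer past the threshold. Named calls in C17.2 lost without its parental library 1 were *CCL5*, *GIPC1*, *GZMA*, *KLRG1*, *PTPN11*, *SGPL1*, *TGFB1* and *VEGFB* (adjusted p from 0.0512 to 0.175), and without parental library 2 *CD33*, *CD38*, *CSF1R*, *GIPC1*, *GZMA*, *KLRG1*, *NKG7*, *PTPN11*, *TGFB1* and *ZAP70* (0.0509 to 0.174). Without resistant library 1 they were *CD38*, *CSF1R*, *GIPC1*, *GZMA*, *PTPN11* and *SGPL1* (0.0504 to 0.113), and without resistant library 2 *CD33*, *CD38*, *CSF1R*, *KLRG1*, *NFATC1*, *PTPN11*, *SGPL1* and *TGFB1* (0.0537 to 0.173). In C3.2, 20 named calls were lost without its parental library 1 (0.0516 to 0.209) and 19 without parental library 2 (0.0519 to 0.198), among them under both *GCSAM*, *ITGB1*, *LGALS1*, *PAX5*, *PHLDB2*, *PTPN6*, *QDPR*, *TRAC* and *ZAP70*, and *PLXND1* without the first and *GZMA* without the second. The cause of these moves was not tested. No paired analysis was possible because the labels number the libraries through and give parental and resistant cells of a clone no shared replicate number. Depth is unknown, which leaves the counting error of low genes such as *CD96* in resistant cells without an estimate, and 2 libraries per group limit the precision.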
